A study of Homo sapiens with 4 samples.

Results

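A set of 10 long noncoding RNAs was followed in the colon carcinoma line HCT116: UCA1, MIR210HG, MALAT1, NEAT1, H19, MEG3, PVT1, TUG1, TMPO-AS1 and KCNQ1OT1. Their probe sets were those that the platform annotation gives a single symbol, which yielded 38 of the 54613 probe sets, for 8 of the 10 genes (19775 genes had such a probe set in all). UCA1, MIR210HG and TMPO-AS1 were chosen by the size of their difference between spheroids and monolayer in these same arrays, so their changes are described without a test. MALAT1, NEAT1, H19, MEG3, PVT1, TUG1 and KCNQ1OT1 were set beside them as known noncoding transcripts. They too were named with earlier results of these data known, so their tests may not be independent of that choice. All 9 probe sets for NEAT1 and both for H19 also carry the symbol of a microRNA within the gene, so these 2 genes were not analysed here, and neither were 4 further probe sets of PVT1.

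The study compared HCT116 cells grown as spheroids, which are rounded multicellular aggregates, with cells grown as a monolayer. HCT116 is an established line, and the labels name 2 versions of it, wt/GFP and wt, without stating the vector or how many clones carry GFP. Each version gave 1 Affymetrix array per culture, so spheroids and monolayer had 2 arrays each. Nothing states the number of cultures behind an array, the oxygen tension or the time in culture, and the spread between arrays may be partly technical.

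Long noncoding RNAs are transcripts that act as RNA rather than through a long open reading frame. KCNQ1OT1, H19 and MEG3 arise from imprinted loci, and KCNQ1OT1 represses neighbouring genes on the paternal chromosome. Others build or occupy nuclear bodies, as NEAT1 does in paraspeckles and MALAT1 in nuclear speckles, or serve as precursors of microRNAs, as MIR210HG does for miR-210, a microRNA induced by hypoxia-inducible factor. UCA1 was described in bladder carcinoma and is abundant in several epithelial tumours, and PVT1 lies beside MYC in a region often amplified in cancer.

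In the reference gene table (build GRCh38.p14) UCA1 lies at chr19:15828947-15836321 and MIR210HG at chr11:565657-568457. MALAT1 spans chr11:65497738-65506516 and TMPO-AS1 chr12:98512973-98516226. TUG1, at chr22:30969265-30979395, is classed there as protein coding, while the other 9 genes are classed as long noncoding RNAs.

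The sequences below come from RefSeq tables of that build. The first pair are the mature forms of miR-210, shown because they are processed from the MIR210HG locus at chr11:568112-568133 and chr11:568150-568171 on the minus strand. Capitals mark the seed, bases 2 to 8. The microRNA itself was not analysed here.
hsa-miR-210-3p: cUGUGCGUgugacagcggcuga
hsa-miR-210-5p: aGCCCCUGcccaccgcacacug

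Promoter sequence is shown for 3 genes: MIR210HG and MALAT1, which were higher in spheroids, and TUG1, which did not pass the test. Capitals mark ACGTG, the core letters of the site that hypoxia-inducible factor binds, searched on both strands, where overlapping matches run together. The MIR210HG window is chr11:568408-568707 on the minus strand, the MALAT1 window chr11:65498795-65499094 on the plus strand, and the TUG1 stretch the 250 bases before its start, chr22:30969015-30969264 on the plus strand. The MALAT1 window belongs to a start inside the gene span given above, and the table holds another, chr11:65497488-65497787, at the outer start, which is not printed.
MIR210HG: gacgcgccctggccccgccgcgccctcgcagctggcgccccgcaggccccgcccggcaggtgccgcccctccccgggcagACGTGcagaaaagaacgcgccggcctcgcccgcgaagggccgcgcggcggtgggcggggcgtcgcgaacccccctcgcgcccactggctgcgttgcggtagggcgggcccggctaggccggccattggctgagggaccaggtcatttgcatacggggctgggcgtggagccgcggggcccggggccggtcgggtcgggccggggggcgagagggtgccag
MALAT1: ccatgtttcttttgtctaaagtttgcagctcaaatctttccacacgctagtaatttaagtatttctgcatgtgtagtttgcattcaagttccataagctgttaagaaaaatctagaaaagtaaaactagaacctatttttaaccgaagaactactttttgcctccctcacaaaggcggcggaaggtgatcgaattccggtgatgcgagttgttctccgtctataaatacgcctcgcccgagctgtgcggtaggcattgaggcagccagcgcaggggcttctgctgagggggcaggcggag
TUG1: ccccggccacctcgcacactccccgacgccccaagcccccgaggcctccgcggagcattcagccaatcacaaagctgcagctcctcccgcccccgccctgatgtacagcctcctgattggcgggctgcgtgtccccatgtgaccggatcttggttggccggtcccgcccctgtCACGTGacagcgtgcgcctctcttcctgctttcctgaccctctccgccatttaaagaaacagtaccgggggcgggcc

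MIR210HG held 1 match, which began at position -170 from its start. TUG1 held 2, at positions -77 and -76 on opposite strands, TMPO-AS1 had 1 at position -137, and both windows of MALAT1 and those of MEG3 and H19 had 0. For UCA1, NEAT1, PVT1 and KCNQ1OT1 no promoter window was available, so these genes were not searched. Of all 35116 promoter windows of 300 bases, 21.4% held the motif on either strand, as did 18.5% of the 250-base stretches. Other forms of the site were not searched, so 0 matches to ACGTG does not mean that a window holds no site. Whether any factor binds at these matches was not measured.

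Values below are MAS5 signals, the linear probe set intensities of the deposited table. Signals from different probe sets are not comparable as levels. Changes are differences of log2(signal + 14), spheroids minus monolayer, and on this scale the change of dim probe sets is understated. A probe set was tested if its mean log2 value over the 4 arrays exceeded 5.48, equal to a signal of 30.6, which 32768 of all probe sets and 23 of the 38 did. The other 15 were too dim, and 4 of the 23 passed only through the culture in which they were higher: MIR210HG 230710_at, MEG3 242246_x_at, PVT1 216249_at and TMPO-AS1 227578_at.

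Among all tested probe sets, 40.1% passed an adjusted p of 0.05 in limma, 25.5% as higher and 14.6% as lower in spheroids, with a median change of 0.23. Several array properties moved with culture. The median signal was 68.4 and 67.3 on the wt/GFP and wt spheroid arrays, against 48.8 and 48.0 on the monolayer arrays. The ratio of 3' to 5' ACTB probe sets was 1.73 and 1.76 in spheroids and 1.30 and 1.32 in monolayers, while that of GAPDH was 0.951 and 0.868 in spheroids and 0.882 and 0.897 in monolayers and overlapped. The 18 hybridisation control probe sets, spiked bacterial and phage transcripts, had a median spheroid excess of 0.78 log2 units in wt/GFP and 0.39 in wt. Of 14 epithelial and colon markers, 13 were above the filter in spheroids and 12 in monolayers. Summed signals of 6 fibroblast markers were 5050 and 3268 in spheroids and 873 and 943 in monolayers, the larger share in spheroids coming from COL1A1 probe set 1556499_s_at, and 4 of the 6 passed the filter level in spheroids and 2 in monolayers. Of 4 immune markers with a probe set, 2 did so in spheroids and 1 in monolayers, with summed signals of 477 and 511 in spheroids and 120 and 193 in monolayers. Within that list LYZ probe set 213975_s_at had 328 and 290 in spheroids and 9.61 and 32.0 in monolayers, whereas PTPRC was at 42.2 or less on every array. The same 2 and 1 held for endothelial and for hepatocyte markers. The part of these differences in the results was not tested, and in RNA from whole cultures a change in cell make-up and a change in RNA per cell cannot be told apart.

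UCA1 was measured by 1 probe set, 227919_at. Its signal was 27309 and 27695 in wt/GFP and wt spheroids, against 1499 and 1779 in wt/GFP and wt monolayers. The 2 spheroid arrays lay close together and far above both monolayer arrays, which were themselves bright. The linear signal ratio was 18.2 in wt/GFP and 15.6 in wt, and the log2 change was 4.06 ± 0.13 (SE), or 16.7-fold. That was the rise of rank 21 among the 32768 tested probe sets, the property for which UCA1 had been chosen.

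MIR210HG had 2 probe sets that differed in the size of their change. The signal of 230710_at was 741 and 526 in wt/GFP and wt spheroids, against 19 and 23.1 in the monolayers, and the groups did not overlap. Its log2 change was 4.19 ± 0.31, rank 13 among the rises, with 4.52 in wt/GFP and 3.87 in wt. Both monolayer signals were below 30.6, so the size depends on the constant added before the logarithm, at 4.90 with none and 3.12 with the median signal.
The other probe set, 236480_at, had signals of 245 and 148 in wt/GFP and wt spheroids, against 29.6 and 82.7 in the monolayers. It was higher in spheroids of both lines by 2.57 in wt/GFP and 0.75 in wt, a mean of 1.66 ± 0.40. The wt/GFP monolayer signal was below 30.6, and the mean was 1.95 with no added constant and 1.17 with the median signal. The 2 probe sets thus had the same direction in both lines, and their gap was widest in wt.

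TMPO-AS1, transcribed from the opposite strand at the locus of the nuclear lamina-associated protein TMPO, stood at the other end. Probe set 227578_at had signals of 15.9 and 9.45 in wt/GFP and wt spheroids, against 157 and 139 in the monolayers. Both spheroid values were under 30.6, and the log2 change was -2.61 ± 0.49, rank 16 among the falls. Without an added constant it was -3.59, and with the median signal -1.55.
The coding partner was lower too. TMPO fell at all 4 of its tested probe sets, by 1.76 ± 0.13 at 203432_at and by 0.64 ± 0.13 at 224944_at, with adjusted p-values in limma of 5.51e-11 and 0.000181. Its log2 values at 203432_at were 10.5 and 10.8 in wt/GFP and wt spheroids and 12.5 and 12.4 in monolayers.

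**Figure D1:**
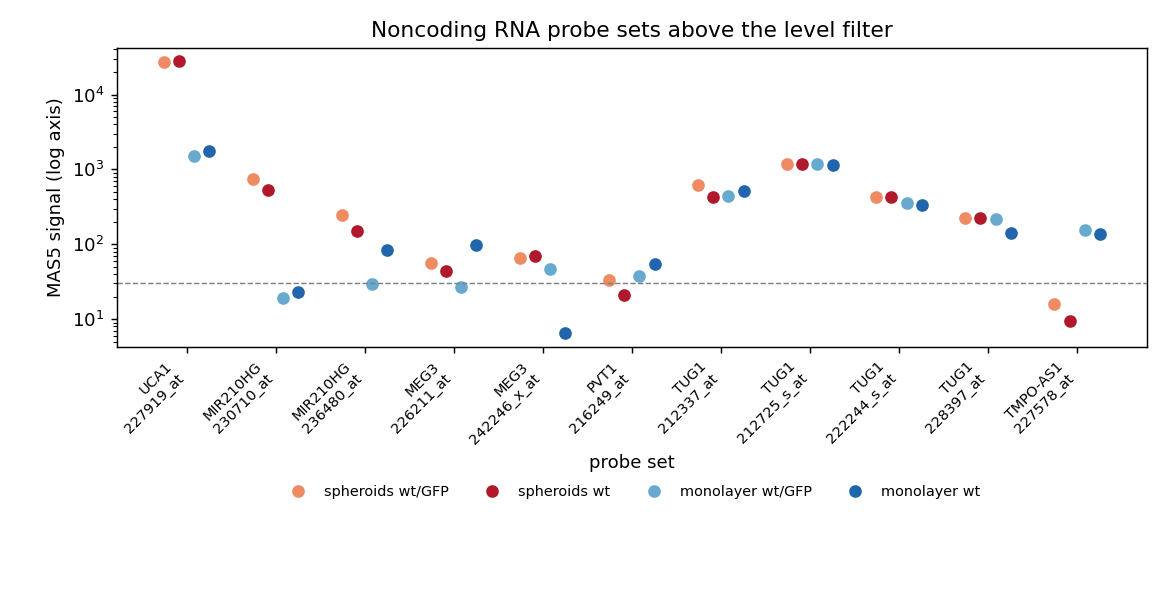
MAS5 signal (log axis) of the 11 probe sets above the level filter other than those of MALAT1, 1 point per array, with spheroid arrays in red shades and monolayer arrays in blue shades. The dashed line is a signal of 30.6; UCA1 spheroid points lie at 27309 and 27695, TMPO-AS1 spheroid points and the monolayer points of MIR210HG 230710_at lie under the line, and TUG1 points lie close together.

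MALAT1, an abundant nuclear RNA of splicing speckles, rose at all 12 of its probe sets. Of the 19 tested probe sets of comparison transcripts, 12 passed, all of MALAT1 and all higher, beside 40.1% of all tested probe sets. The 12 probe sets read 1 transcript and are not independent. By their suffix 7 may cross-hybridise (_x_at), 4 are shared between transcripts (_s_at) and 1, 224559_at, is neither. Log2 changes ranged from 1.32 to 3.29 with a median of 2.63, or 6.21-fold, which was 2.40 above the median of all tested probe sets, and adjusted p-values in limma lay between 1.35e-15 and 0.00046.

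The brightest MALAT1 probe set, 224567_x_at, had signals of 46940 and 40476 in wt/GFP and wt spheroids, against 8408 and 10937 in the monolayers. This was a change of 2.18 ± 0.15. Probe set 226675_s_at had signals of 29373 and 27465 in spheroids and 3611 and 3835 in monolayers, and rose by 2.93 ± 0.13 (adjusted p = 1.35e-15 in limma). Here both lines lay within a narrow band in either culture.
At 224558_s_at the signals were 1738 and 1583 in spheroids and 173 and 142 in monolayers, which gave the highest change of the 12, 3.29 ± 0.17. The smallest was at 224559_at, with 835 and 362 in spheroids and 232 and 193 in monolayers, a rise of 1.32 ± 0.22 (adjusted p = 2.18e-05 in limma). No MALAT1 probe set had overlapping groups, and both spheroid arrays lay above both monolayer arrays at all 12, as they did at 45.3% of all tested probe sets. The change was at least 2-fold in both lines at 11 of the 12, beside 10.1% of all tested probe sets.

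The rise of MALAT1 was larger in wt/GFP than in wt at 11 of 12 probe sets, with medians of 3.12 in wt/GFP and 1.89 in wt. Over all tested probe sets, 50.5% had the larger change in wt/GFP. At 5 of the 12 the lines differed by more than 1 log2 unit. One of them, 1558678_s_at, had signals of 22770 and 12869 in wt/GFP and wt spheroids, against 1483 and 3147 in the monolayers, so that wt/GFP was the higher line in spheroids and the lower one in monolayers. The same crossing was seen at 223940_x_at, with 10748 and 5349 in spheroids and 782 and 1521 in monolayers, and at 224568_x_at, with 5623 and 3050 in spheroids and 440 and 905 in monolayers.
In all, 8 of 12 probe sets crossed in this way, among them 223577_x_at and 226675_s_at, where the lines lay close together in both cultures. With 1 array per line and culture, the difference between lines could not be tested. No share over all tested probe sets was computed for the crossing or for a difference above 1 log2 unit. These counts are therefore not read as particular to MALAT1.

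The fit leaves 1 residual degree of freedom, and the MALAT1 calls changed with the moderation of the variance. Without a trend of variance on level 6 of 12 passed (adjusted p from 0.0479 to 0.0748 in limma). Among those lost was 224559_at, the probe set with neither suffix (adjusted p = 0.0748 in limma). With robust fitting 9 of 12 passed, where 1558678_s_at, 223940_x_at and 224568_x_at were lost (adjusted p from 0.226 to 0.247 in limma).

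**Figure D2:**
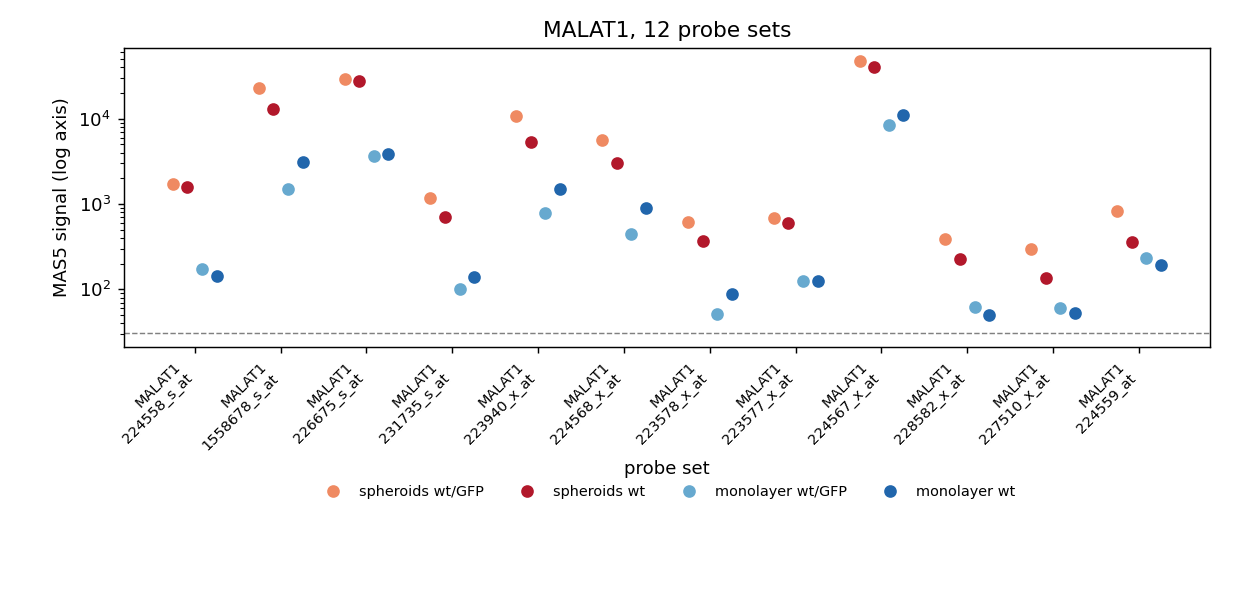
MAS5 signal (log axis) of the 12 MALAT1 probe sets, ordered by log2 change from 3.29 at the left to 1.32 at the right, 1 point per array, with the dashed line at a signal of 30.6. Both spheroid points lie above both monolayer points at every probe set, and at 1558678_s_at, 223940_x_at and 224568_x_at the wt/GFP point is the upper one in spheroids and the lower one in monolayers.

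TUG1, a widely expressed RNA linked to chromatin regulation, did not pass the test at any of its 4 tested probe sets, which had changes between 0.01 and 0.32 with the deposited scaling and below 0 when arrays were scaled on the hybridisation controls (adjusted p from 0.222 to 0.958 in limma with the deposited scaling). Probe set 212725_s_at had signals of 1174 and 1197 in wt/GFP and wt spheroids, against 1196 and 1156 in the monolayers, and the groups overlapped. Its change was 0.01 ± 0.14, a spread that leaves out neither a small rise nor a small fall. At 222244_s_at the values were 430 and 428 in spheroids and 353 and 337 in monolayers, a change of 0.30 ± 0.19.
Probe set 212337_at had 614 and 431 in spheroids and 438 and 522 in monolayers, where the lines moved in opposite directions. Signals of 223 and 222 in spheroids and 218 and 141 in monolayers were found at 228397_at, whose change of 0.32 came mostly from wt. The 2 dim probe sets, 229301_at and 230635_at, were not tested.

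MEG3, an imprinted RNA whose expression is often lost in tumours, was dim, and 2 of its 10 probe sets were tested. At 226211_at signals were 56.7 and 43.5 in wt/GFP and wt spheroids and 27.2 and 96.9 in the monolayers, so that the 2 monolayer arrays enclosed both spheroid arrays (change -0.08 ± 0.51, adjusted p = 0.916 in limma). At 242246_x_at they were 66.3 and 69.1 in spheroids and 46.6 and 6.48 in monolayers, and the change of 1.21 ± 0.57 did not pass (adjusted p = 0.0925 in limma). The remaining 8 probe sets had changes between -0.96 and 0.25, and no MEG3 probe set exceeded a signal of 96.9 on any array. These levels lie where the spread between arrays is wide, and a change of MEG3 was not detectable here.

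PVT1 was read by 1 probe set with a single symbol, 216249_at. Signals were 33.7 and 20.8 in wt/GFP and wt spheroids, against 37.3 and 54.5 in the monolayers, close to the filter, and the change of -0.54 ± 0.58 did not pass (adjusted p = 0.494 in limma). MYC, its neighbour, had a change of 0.22 ± 0.13 (adjusted p = 0.195).
None of the 5 probe sets of KCNQ1OT1, the antisense RNA of the imprinted KCNQ1 domain, passed the filter. Their signals ranged from 3.09 to 74.5. Both spheroid arrays were above both monolayer arrays at 4 of the 5, as they were at 38.8% of all 54613 probe sets. The largest change, 1.28 at 237249_at, came from 22.7 and 74.5 in wt/GFP and wt spheroids against 14.3 and 5.50 in monolayers, and in a fit without the filter no KCNQ1OT1 probe set passed (adjusted p from 0.165 to 0.9 in limma). Over the comparison transcripts other than MALAT1, both spheroid arrays were above both monolayer arrays at 7 of 22 probe sets and below them at 3, beside 38.8% and 18.6% of all probe sets.

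**Figure D3:**
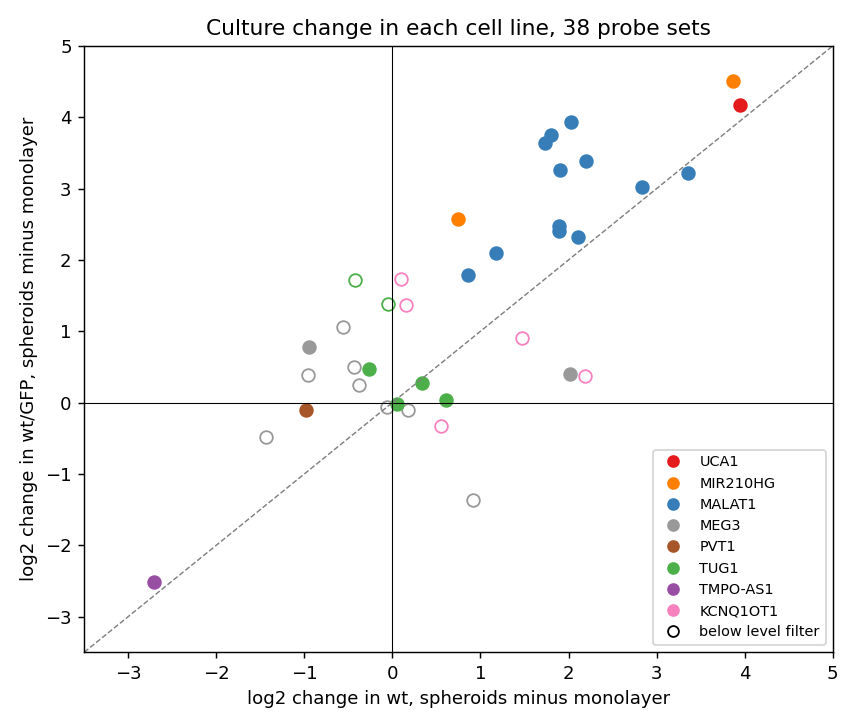
Log2 change, spheroids minus monolayer, in wt (horizontal) and wt/GFP (vertical) for the 38 probe sets, with filled points for the 23 above the level filter and open points for the 15 below it. The dashed line marks equal change, and UCA1 and TMPO-AS1 lie near it. The MIR210HG points and 11 of 12 MALAT1 points lie above it, some of the MALAT1 points close to it.

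The comparison of the 2 cell lines did not enter the choice of these RNAs. None of the 23 tested probe sets differed between wt/GFP and wt in the additive limma fit, with differences from -0.57 to 0.76 and adjusted p-values from 0.617 to 1.0. Of all tested probe sets, 6, or 0.0183%, passed. At an unadjusted p of 0.05, 1 of the 23 lay under the threshold, MALAT1 224559_at, which was higher in wt/GFP by 0.71 ± 0.22 (adjusted p = 0.617 in limma), and 1882 of all probe sets did. UCA1 had a difference of -0.13 ± 0.13 and MIR210HG 230710_at one of 0.16 ± 0.31. This fit takes the line difference as equal in both cultures, and so averages over the crossing seen for MALAT1.

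Genes that lie beside or across from these RNAs were followed in a list of 17, of which 14 had tested probe sets, 30 in all. Of these, 7 probe sets were higher (23.3%) and 6 lower (20%), beside 25.5% and 14.6% of all tested probe sets, with a median change of 0.08 against 0.23. Scaled on the hybridisation controls or centred on their medians, the arrays gave 6 higher and 8 lower. At the imprinted KCNQ1 domain CDKN1C, an inhibitor of cyclin-dependent kinases, rose at all 4 tested probe sets, by 1.59 to 2.80. KCNQ1, a potassium channel subunit, rose by 2.27 ± 0.21 at 204487_s_at (adjusted p = 1.62e-09 in limma) and had a change of -0.30 at 211217_s_at, which did not pass.
Near UCA1, CYP4F2, a fatty acid hydroxylase, had a value of 2.38 ± 0.39 at 210452_x_at. Its monolayer mean was below the filter, so it was tested only through the spheroid arrays, although the 7 higher probe sets include it. CYP4F11 had a value of 0.76 that did not pass. Around MIR210HG, PHRF1 fell by 0.52 ± 0.18 at 1 of 2 probe sets, and RASSF7 and LRRC56 did not pass, with values of 0.09 and 0.16 for RASSF7 and 0.63 for LRRC56. Of the genes near MALAT1 and NEAT1, FRMD8 rose by 0.47 ± 0.13 at 227964_at and fell by 0.87 ± 0.33 at 1554905_x_at, so that its probe sets disagreed, and LTBP3 did not pass. MORC2, the neighbour of TUG1, GSDMC near PVT1 and DLK1 near MEG3 did not pass either, with values between -0.35 and 0.36.

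MicroRNA host transcripts, of which MIR210HG is one, were taken as a list of 26, with 18 tested probe sets of 11 genes. Higher were 4 probe sets (22.2%) and lower 3 (16.7%), beside 25.5% and 14.6% of all tested probe sets, and the median change was 0.35 against 0.23. The split turned to 2 higher and 4 lower with quantile-normalized values, 3 and 4 with median-centred arrays and 1 and 5 on the hybridisation control scale. MIR100HG, host of a let-7 and miR-125 cluster, had log2 values of 12.5 and 12.1 in wt/GFP and wt spheroids, against 10.6 and 10.5 in the monolayers, and rose by 1.75 ± 0.13 (adjusted p = 2.92e-11 in limma). LINC-PINT rose by 1.34 ± 0.20, FTX, a noncoding RNA of the X inactivation centre, by 1.13 ± 0.30, and MIR31HG by 0.96 ± 0.27. CARMN had a change of 1.08 ± 0.45 that did not pass (adjusted p = 0.0574).
DLEU2, host of miR-15a and miR-16-1, fell by 2.35 ± 0.15 at 216870_x_at and by 2.13 ± 0.34 at 216856_s_at (adjusted p = 3.61e-12 and 1.13e-05 in limma), while its 3 other tested probe sets did not pass. MIR4435-2HG had a value of -1.87 ± 0.45 with a spheroid mean below the filter, so that it was tested only through the monolayer arrays. Its call is not read as support, although the 3 lower probe sets include it. MIR924HG had a value of -0.77 ± 0.33 that did not pass (adjusted p = 0.0643 in limma).

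A further list held 50 long noncoding RNAs, 26 of them tested at 51 probe sets. Of these 19 were higher (37.3%) and 6 lower (11.8%), beside 25.5% and 14.6% of all tested probe sets, with a median change of 0.43 against 0.23. Scaled on the hybridisation controls, the same probe sets gave 5 higher and 9 lower. HCP5, from the HLA class I region, rose by 1.82 ± 0.34 and PCAT6 by 1.68 ± 0.40. FAM13A-AS1 at 1558711_at and EMX2OS at 232531_at had values of 1.99 ± 0.55 and 1.47 ± 0.50. Their monolayer means were below the filter, so they were tested only through the spheroid arrays. Their calls are not read as support, although the 19 higher probe sets include them. NORAD, a cytoplasmic RNA that binds Pumilio proteins, had log2 values of 14.2 and 14.3 in wt/GFP and wt spheroids and 13.0 in both monolayers at 224597_at, and rose by 1.26 ± 0.13 there and by 1.54 ± 0.16 at 1558028_x_at.
On the other side, MIAT, CASC2 and RPPH1 had values of -1.26, -1.09 and -1.0 that did not pass (adjusted p from 0.0672 to 0.173), each with a spheroid mean below the filter. DANCR fell by 0.89 ± 0.12, DLEU1 fell by 0.64 ± 0.13 and CRNDE, an RNA raised in colorectal neoplasia, fell by 0.55 ± 0.20 and 0.54 ± 0.14. OIP5-AS1 rose at 225225_at by 1.34 ± 0.13 and at 225332_at by 1.08 ± 0.15 and fell at 231808_at by 0.81 ± 0.13, with tight values in both lines, so no direction is given for it. HCG18 likewise rose at 1 probe set and fell at 1 of its 10 tested.

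Transcripts encoding proteins of paraspeckles, the bodies that NEAT1 scaffolds, were lower at 16 of 30 tested probe sets (53.3%) and higher at 4 (13.3%). Of all tested probe sets, 14.6% were lower and 25.5% higher. The median of the list was -0.38 against 0.23, and the proteins themselves were not measured. RBM14 fell by 1.47 ± 0.14 at 204178_s_at, SFPQ fell by 1.22 ± 0.12 at 201585_s_at, PSPC1 fell by 1.09 ± 0.29 at 226724_s_at, TARDBP fell by 1.07 ± 0.13 at 200020_at, and DAZAP1 fell by 0.79 ± 0.12 at 218443_s_at. SFPQ nevertheless rose by 1.08 ± 0.18 at 221768_at, and TARDBP and CPSF6 also had probe sets of both directions.
Transcripts reported elsewhere as targets of miR-210 had 7 of 23 tested probe sets higher (30.4%) and 2 lower (8.7%), beside 25.5% and 14.6% of all tested probe sets, with a median of 0.29 against 0.23. With median-centred arrays 3 were higher and 6 lower. ISCU, an iron-sulfur cluster scaffold, had log2 values of 12.6 and 12.8 in wt/GFP and wt spheroids, against 13.4 and 13.5 in the monolayers, and fell by 0.74 ± 0.13 (adjusted p = 2.57e-05 in limma). PTPN1, a protein tyrosine phosphatase, fell by 0.92 ± 0.15. SERTAD2, MNT, EFNA3, GPD1L and BDNF rose by 0.41 to 1.0 at 7 probe sets, and SDHD, COX10, E2F3, RAD52, ACVR1B and CASP8AP2 did not pass. Scaled on the hybridisation controls, 4 probe sets of this list were lower and 0 higher in limma.

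**Figure D4:**
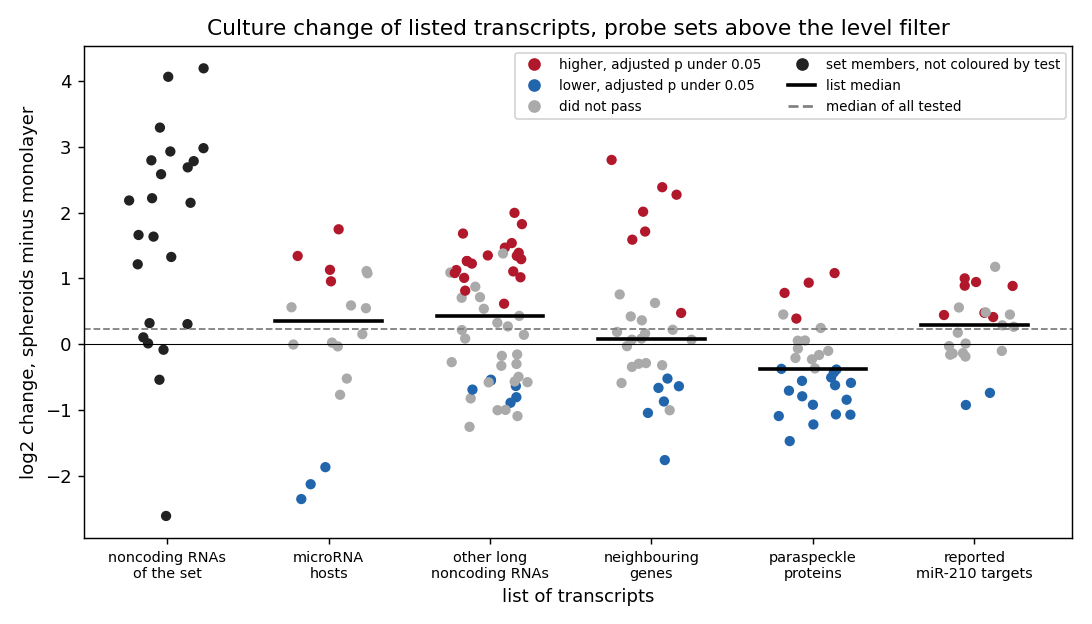
Log2 change, spheroids minus monolayer, of each tested probe set in the set of noncoding RNAs (black) and in 5 lists, coloured by the limma call (red higher, blue lower, grey did not pass). Thick bars are list medians and the dashed line the median of all tested probe sets, 0.23. Transcripts of paraspeckle proteins lie mostly below it, with a median of -0.38.

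The transcripts whose values ran most like those of UCA1 over the 4 arrays, by Euclidean distance of log2 values centred on their mean, were ALDOC (0.144), an aldolase, SELENOP (0.155), a selenium carrier, IER5L (0.217), SAT1 (0.258), an enzyme of polyamine breakdown, and DDIT4L (0.277). For MIR210HG 230710_at they were DDIT4L (0.212), ANGPTL4 (0.249), a secreted lipase inhibitor, ANKRD37 (0.252), SAT1 (0.268) and SELENOP (0.301). CLSPN (0.123), the checkpoint adaptor claspin, PHF19 (0.162), a Polycomb partner, MTFR2 (0.226) and the matricellular proteins CCN2 (0.262) and CCN1 (0.264) were nearest to TMPO-AS1. The culture changes of these probe sets lay between 4.10 and 4.27 for the first 2 RNAs and between -2.65 and -2.35 for TMPO-AS1. Over 4 arrays the distance rests mostly on the culture change, for which these RNAs were chosen. Changes of like size among the nearest transcripts therefore follow from the measure and are not a separate result.

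Directions were compared under 4 scalings of the arrays, since the median change of all tested probe sets moved with it: 0.23 as deposited, -0.03 with quantile-normalized values, -0.16 with arrays centred on their medians and -0.36 with arrays scaled on the hybridisation controls. Of the probe sets called, 63.5%, 48.7%, 32.6% and 19.5% were higher in spheroids. UCA1 had changes of 4.06, 4.03, 3.67 and 3.47 in that order and MIR210HG 230710_at 4.19, 3.93, 3.80 and 3.60. TMPO-AS1 had -2.61, -2.93, -3.00 and -3.20. The MALAT1 median was 2.63, 2.39, 2.24 and 2.04, and 12, 12, 12 and 11 of its probe sets passed. On the hybridisation control scale 224559_at did not pass, at 0.73 (adjusted p = 0.0775 in limma). It is the only MALAT1 probe set with neither the _x_at nor the _s_at suffix. TUG1 was the transcript whose sign turned, and 212725_s_at passed as lower with median-centred arrays, at -0.38 (adjusted p = 0.0321 in limma).

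**Figure D5:**
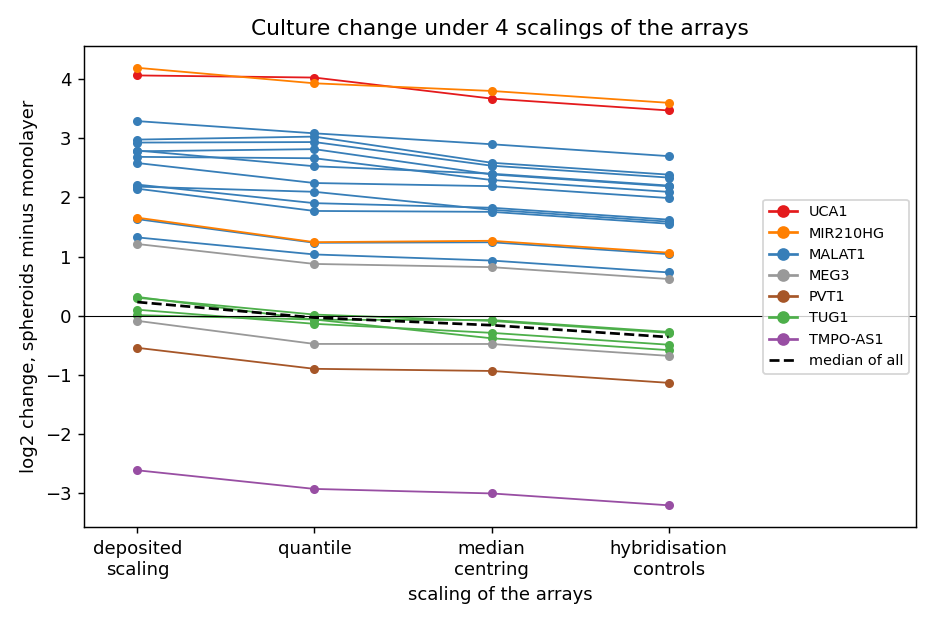
Log2 change, spheroids minus monolayer, of the 23 tested probe sets under 4 scalings of the arrays, 1 line per probe set, with the median of all tested probe sets dashed. UCA1, MIR210HG and MALAT1 lines stay above 0 and TMPO-AS1 below it, whereas TUG1 lines follow the dashed median across 0.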

How the data were processed

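The authors deposited 1 table of MAS5 signals, linear intensities per probe set for the 4 arrays, with MAS5 named in the submitters' processing notes and its version not given in the sources used here. The trimmed mean, leaving out 2% at each end, was 500.1 on every array. The 62 control probe sets were set aside. Of the other 54613, 41091 had 1 symbol in the platform annotation, 1801 several and 11721 none. Of those with 1 symbol, 41037 were matched by gene identifier and given the symbol of the reference gene table, whether or not it differed. Signals were transformed as log2(signal + 14), the 25th percentile of all signals, and probe sets above the 40th percentile of mean log2 value were kept. limma 3.58.1 in R 4.3.3 fitted culture and cell line as additive terms with a variance trend (1 residual and 24.9 prior degrees of freedom), each probe set alone. Adjusted p-values are Benjamini-Hochberg over all tested probe sets, two-sided. SEs are moderated and rest mainly on other probe sets. Arrays pair by the cell line the labels give; the line difference in monolayers and that in spheroids correlated at -0.00322 across probe sets. The procedure was tested on simulated data with independent normal noise of the variances it had fitted. Such data cannot show whether those variances hold for these arrays. The number of arrays limits precision. Like the SEs, p-values rest mainly on the spread at other probe sets, and little on how far the 2 lines disagree at the probe set tested. At MALAT1 1558678_s_at, changes of 3.93 in wt/GFP and 2.03 in wt went with an SE of 0.22. Neither p-values nor SEs measure the spread of replicate cultures. Members and lists were chosen with earlier results of these data known. Named were all members, up to 5 tested genes per list and direction with the largest change, every tested neighbour and reported miR-210 target, and the 5 nearest profiles. DLEU1, CRNDE, HCG18, COL1A1, LYZ and PTPRC were named after their values were seen. Alternatives covered array scaling, pseudocount, filter, moderation, the cell line term, probe set choice and each array left out.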

Additional observations from a re-analysis of the deposited data

Results flagged for a closer look

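At 3 tested probe sets the 2 lines moved in opposite directions between cultures, each from 1 array per line and culture, so the difference was not tested. MEG3 226211_at changed by 0.78 in wt/GFP and -0.95 in wt, a difference of 1.72. TUG1 212337_at changed by 0.48 in wt/GFP and -0.27 in wt, a difference of 0.75. TUG1 212725_s_at changed by -0.03 in wt/GFP and 0.05 in wt, a difference of -0.076.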

How the results depend on the processing

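Counts below are probe sets past the limma threshold. Over all probe sets the culture count was 13137 of 32768 tested. It became 7050 of 14349 with 1 probe set per gene and 2857 of 32768 with moderation without trend. Without probe sets shared between transcripts it was 7571 of 20294. In these settings the comparison transcripts gave 1 of 4, 6 of 19 and 1 of 5, in place of 12 of 19. Where fewer probe sets were tested, a lower count is not by itself a loss of calls. In the same 3 settings, the other long noncoding RNAs gave 14 of 26, 8 of 51 and 19 of 41, in place of 25 of 51. On the hybridisation control scale they gave 14 of 51. Neighbours gave 6 of 14, 7 of 30 and 4 of 14 in those 3 settings, in place of 13 of 30. Paraspeckle proteins gave 7 of 9, 2 of 30 and 7 of 10, in place of 20 of 30. MicroRNA hosts gave 4 of 11 in place of 7 of 18 without shared probe sets. The miR-210 targets gave 9 of 23 in the main fit. They gave 4 of 23 on the hybridisation control scale, 0 of 23 without trend and 5 of 13 without shared probe sets. The cell line count of 6 became 3 with quantile normalization, 1 without pseudocount, 1 without filter, 10 with the filter at the 60th percentile, 0 without trend and 2 without shared probe sets. With no replicate block (no cell line or culture term) it was 0, while the culture count was 12214 and MALAT1 kept 12 of 12 calls. A line fit without a culture term leaves the culture difference in the residual or mixed with the line. A cell line count of 0 there, or with 1 array left out, therefore cannot tell whether the lines differ. TUG1 212725_s_at turned to -0.38 with median centring. Leaving out 1 array at a time, without the second term of the fit, gave 9488 to 11582 culture calls, 11 to 13 for the comparison transcripts, 0 to 0 for the cell line, 6 to 8 for microRNA hosts, 17 to 23 for other long noncoding RNAs, 10 to 13 for neighbours, 13 to 17 for paraspeckle proteins and 6 to 9 for miR-210 targets. MEG3 242246_x_at passed without the wt/GFP monolayer array, at 2.00 (adjusted p = 0.0384), a fit in which the monolayer arm is 1 array at a signal of 6.48, assumed to vary like the spheroid arrays, and the probe set is tested only through its spheroid level. MALAT1 227510_x_at was lost without the wt/GFP spheroid array (adjusted p = 0.082). Over all alternatives UCA1 ranged from 3.47 to 4.18, MIR210HG from 3.12 to 4.90 at 230710_at and 1.07 to 2.23 at 236480_at, and TMPO-AS1 from -3.59 to -1.55. The cause of each shift was not tested.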
